A study of Homo sapiens with 24 samples.

Results

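HEK293T cells grown as spheroids in a dual-axis rotating capillary container (DRCC) turned at 30 rpm were compared with the same line grown flat in ordinary dishes (2D). The comparison rests on 6 of the 24 libraries of the series, 3 per condition, taken by their labels from the deposited table of transcript levels, and on the 12020 genes that reached an FPKM of 1 in at least 3 of these 6 libraries. FPKM counts sequenced fragments relative to transcript length and library size, so it is a share of a library and shows no change in the total RNA of a cell. HEK293T is a human embryonic kidney line that carries the SV40 large T antigen, which binds the p53 and RB proteins. The series also holds HEK293T spheroids rotated at 1 rpm, HEK293T spheroids in static AggreWell microwells, and the same 4 formats for PANC-1, a pancreatic ductal carcinoma line, each with 3 libraries. No allele, drug or transgene is named for any group, and the labels used here do not give the culture time, the medium, the spheroid size or whether the 3 libraries of a group came from separate cultures. The p-values below therefore measure the spread between libraries, which may be technical, and because these are bulk samples fewer cells of a kind and less RNA per cell cannot be told apart.

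The labels call the tissue kidney and the cell type epithelial. Of 14 genes listed as markers of HEK293T, 13 were in the table and 10 or 11 had an FPKM of at least 1 in each of the 6 libraries, among them SALL1, HOXD13 and LIN28B, and PHOX2A was at 0 throughout. The summed FPKM of these markers ran from 168 to 176 in 2D and from 137 to 143 at 30 rpm. GAL held the largest part of this sum, with a mean of 81.7 in 2D and 35.3 at 30 rpm. The markers did not fall as a group: of 10 tested, 4 rose and 4 fell. LIN28B rose from 14.9 to 32.0 and NEFL from 4.26 to 9.81. The sum over 14 PANC-1 markers was 11.2 to 11.4 in 2D and 12.2 to 12.7 at 30 rpm. Of these, MET, CAV1 and TGM2 passed the filter, with 2D means of 4.34, 4.14 and 1.30. KRT7 and KRT19, keratins of ductal epithelium, were at 0 in all 6 libraries, but were low in PANC-1 2D as well (means of 1.53 and 1.98). Of 12 epithelial markers 5 were tested, and 3 rose and 2 fell. KRT8 and KRT18 were the highest, with means of 30.1 and 51.5 in 2D and 36.4 and 40.1 at 30 rpm. Of 11 nephron markers in the table, LRP2 and PODXL passed the filter and PAX8 and CDH16 were at 0 in all 6 libraries. The 2D libraries held 38872090 to 39437901 fragments and those at 30 rpm 32555389 to 33113172.

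A spheroid differs from a flat culture in the depth of tissue that oxygen and nutrients must cross, in cell-to-cell contact and in the pull of the substrate, and a rotating vessel adds fluid movement. Cells answer a shortage of amino acids through the kinase GCN2 and the transcription factor ATF4, which raises amino acid transporters, synthesis enzymes and tRNA synthetases. A shortage of oxygen stabilises HIF-1, which raises glucose transporters and glycolytic enzymes. Glucose-derived metabolites act through the MondoA and ChREBP factors on TXNIP and its arrestin relatives, oxidants and heme act through NRF2 and BACH1 on HMOX1, and sterol shortage acts through SREBP2 on the enzymes of cholesterol synthesis.

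Promoters of 3 genes that were among the clearest responders are shown with the element through which these pathways are known to act. The windows are the 250 bases before a RefSeq start site on the gene's strand, build GRCh38.p14, in lower case with the matched motif in capitals. ASNS and TXNIP have 2 such windows each, and the one shown was picked because it alone holds the match. CHAC1 has 1 window. ASNS lies on the minus strand at chr7:97872409-97872658 and CHAC1 on the plus strand at chr15:40953221-40953470, and in both the capitals mark a match to TGATGNAA, the core of the composite site bound by C/EBP and ATF4. TXNIP lies on the minus strand at chr1:145996580-145996829, and its capitals mark a match to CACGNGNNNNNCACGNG, the paired E-box of the carbohydrate response element.
ASNS: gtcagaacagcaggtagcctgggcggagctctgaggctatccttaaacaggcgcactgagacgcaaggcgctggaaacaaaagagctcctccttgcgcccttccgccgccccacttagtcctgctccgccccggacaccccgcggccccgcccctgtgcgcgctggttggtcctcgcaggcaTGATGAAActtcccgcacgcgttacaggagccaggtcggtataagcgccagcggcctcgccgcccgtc
CHAC1: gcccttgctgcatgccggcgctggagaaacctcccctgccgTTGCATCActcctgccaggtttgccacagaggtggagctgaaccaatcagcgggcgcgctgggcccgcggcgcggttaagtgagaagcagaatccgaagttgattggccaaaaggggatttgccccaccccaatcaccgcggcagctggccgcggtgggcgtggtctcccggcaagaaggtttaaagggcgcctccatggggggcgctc
TXNIP: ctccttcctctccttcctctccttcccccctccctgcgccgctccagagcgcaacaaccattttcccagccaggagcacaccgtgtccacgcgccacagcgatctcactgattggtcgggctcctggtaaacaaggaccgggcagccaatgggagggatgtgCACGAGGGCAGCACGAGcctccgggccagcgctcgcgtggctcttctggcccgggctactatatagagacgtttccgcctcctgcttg
The ASNS match begins 68 bases before the start site, the CHAC1 match 209 bases before it and on the opposite strand, and the TXNIP match 88 bases before it. Both strands were searched, none of the 3 windows holds a match to both patterns, and the patterns were picked with the behaviour of these genes known. TGATGNAA was present in 1104 of 35116 promoter windows (3.14%), in the windows of 199 of the 9729 tested genes with an entry (2.05%), in 5 of 20 genes of the ATF4 list (25.0%) and in 3 of 16 cytosolic tRNA synthetase genes (18.8%). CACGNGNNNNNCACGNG was present in 16 of 35116 windows (0.0456%) and in 12 of the tested genes (0.123%). A match describes the letters and says nothing of occupancy in these cells.

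The change from 2D to 30 rpm reached most genes. By limma on log2(FPKM + 1), with Benjamini-Hochberg adjustment over all 12020 genes and a threshold of 0.05, 10329 genes were called (85.9%), of which 5972 were higher at 30 rpm (49.7%) and 4357 lower (36.2%). A change of at least 2-fold was found for 1938 genes (16.1%), and rises outnumbered falls there, with 1453 (12.1%) against 485 (4.03%). The median gene stood 0.12 higher on the log2 scale, against -0.001 with median-ratio scaling, -0.05 under quantile normalization and 0.27 with mitochondrially encoded genes left out of the scaling, and under quantile normalization 46.0% of calls were rises, in place of 57.8%. Of the tested genes, 691 were under an FPKM of 1 in all 3 libraries in 2D and passed only through 30 rpm, and 124 passed only through 2D. Replicate 2 of 2D stood most apart from the other libraries of its group, and without it 10280 genes were called. Because 85.9% of all genes were called, the count of called members in a gene list says little, and each list below is read by its direction and median beside that of all genes. The largest adjusted p among the genes said below to have risen or fallen against 2D was 0.0013, and log2 changes are given with their standard error (SE).

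Long and AT-rich transcripts were shifted upward at 30 rpm. Over 11626 tested genes with a known length and GC content, the median log2 change was 0.65 in the group of lowest GC content among 5 equal groups and -0.16 in the next to highest. By length it rose from -0.18 in the shortest group to 0.36 in the longest. The 766 genes that were in both the longest and the lowest-GC group had a median of 0.79, of which 294 rose 2-fold or more and 0 fell by as much. At least 2-fold rises made up 31.9% of the lowest-GC group and 5.68% of the highest. AggreWell against 2D moved the same way with length and GC content, 30 rpm against 1 rpm did not (medians of -0.007 to -0.056), and in PANC-1 the highest-GC group had the largest median, 0.40. The part of this trend in single results was not tested, and values with a smooth trend on length and GC content removed from each library are given beside the median of each list ("with the trend removed") and beside the called genes that this moved by over 1.5 times.

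**Figure D1:**
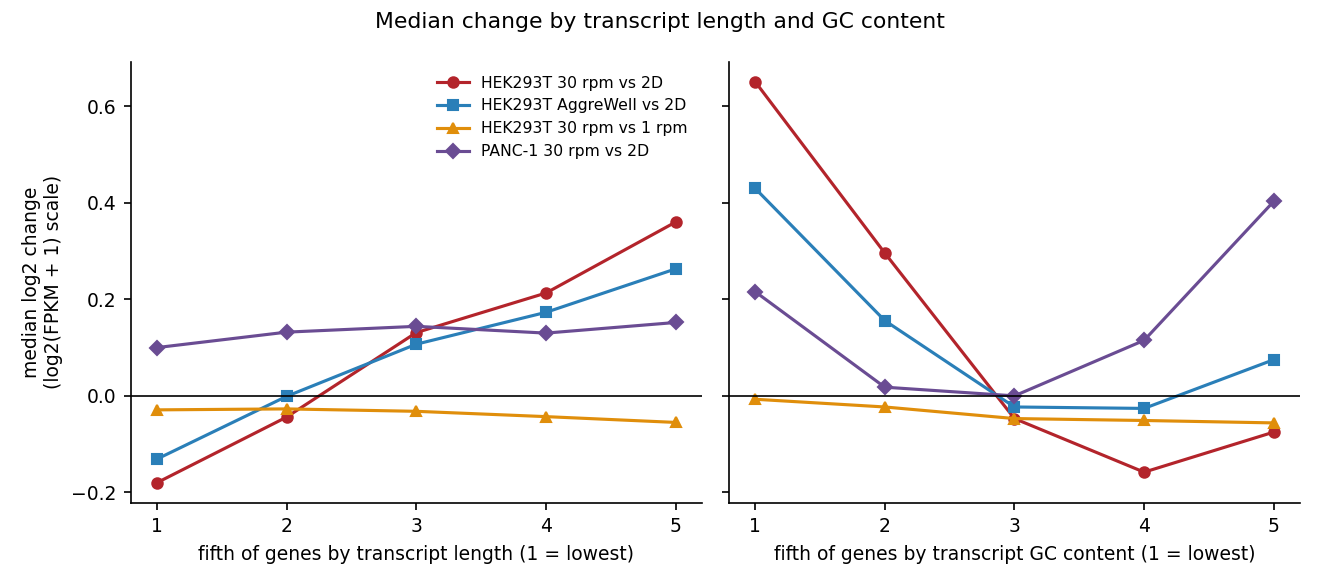
Median log2 change on the log2(FPKM + 1) scale (vertical axis) in 5 equal groups of genes by transcript length (left) and GC content (right), for 4 comparisons marked by colour. In HEK293T the 30 rpm against 2D line falls from 0.65 at lowest GC content to -0.16 in the next to highest group, while 30 rpm against 1 rpm stays near 0.

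The largest rises among protein-coding genes joined stress, signalling and redox genes. NGFR, the low-affinity neurotrophin receptor of the TNF receptor family, had FPKM 0.8001, 1.105 and 1.11 in 2D and 26.2, 25.7 and 26.6 at 30 rpm. Its log2 change was 3.77 ± 0.06 (adjusted p = 9.8e-15). ATF3, a stress-induced bZIP factor, had FPKM 12.8, 12.7 and 12.6 in 2D and 184, 175 and 179 at 30 rpm, a log2 change of 3.72 ± 0.025 (adjusted p = 9.7e-18). In both genes every library at 30 rpm lay far above every 2D library. ANXA1, annexin A1, a calcium-dependent phospholipid-binding protein, rose by 3.73 ± 0.091, from a mean FPKM of 1.43 to 31.1. SAT1, which acetylates spermidine and spermine for export or breakdown, rose by 3.33 ± 0.04, from 15.4 to 164. CALCB, the beta form of calcitonin gene-related peptide, and C11orf96 rose by 3.24 ± 0.034 and 3.24 ± 0.056. The other 4 genes of the first 10, TXNIP, SLC7A11, ASNS and HMOX1, are described with their pathways below.

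Among the largest falls were genes of signalling, metal binding and RNA processing. PRKAR1B, a regulatory subunit of protein kinase A, had FPKM 8.43, 8.21 and 8.99 in 2D and 0.649, 0.655 and 0.713 at 30 rpm, a log2 change of -2.51 ± 0.055 (adjusted p = 1.5e-13). All 3 libraries at 30 rpm lay under the lowest 2D library, and the 2D mean was 12.7 times the 30 rpm mean. MT1X, a zinc- and copper-binding metallothionein with near-identical relatives, had FPKM 76.2, 71.4 and 68.1 in 2D and 11.8, 12.8 and 10.8 at 30 rpm and changed by -2.51 ± 0.056. POP1, the largest protein subunit of RNase P and RNase MRP, fell from 13.7 to 2.28, and PYM1, which takes exon junction complexes off mRNA, from 30.7 to 6.33. ADI1, an enzyme of methionine salvage, MARVELD1 and PPP1R10, a nuclear targeting subunit of protein phosphatase 1, changed by -2.20 ± 0.036, -2.19 ± 0.036 and -2.08 ± 0.057. RPS10 and HSPA1A were also among the largest falls, but both have near-identical copies elsewhere in the genome and their counts are uncertain.

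**Figure D2:**
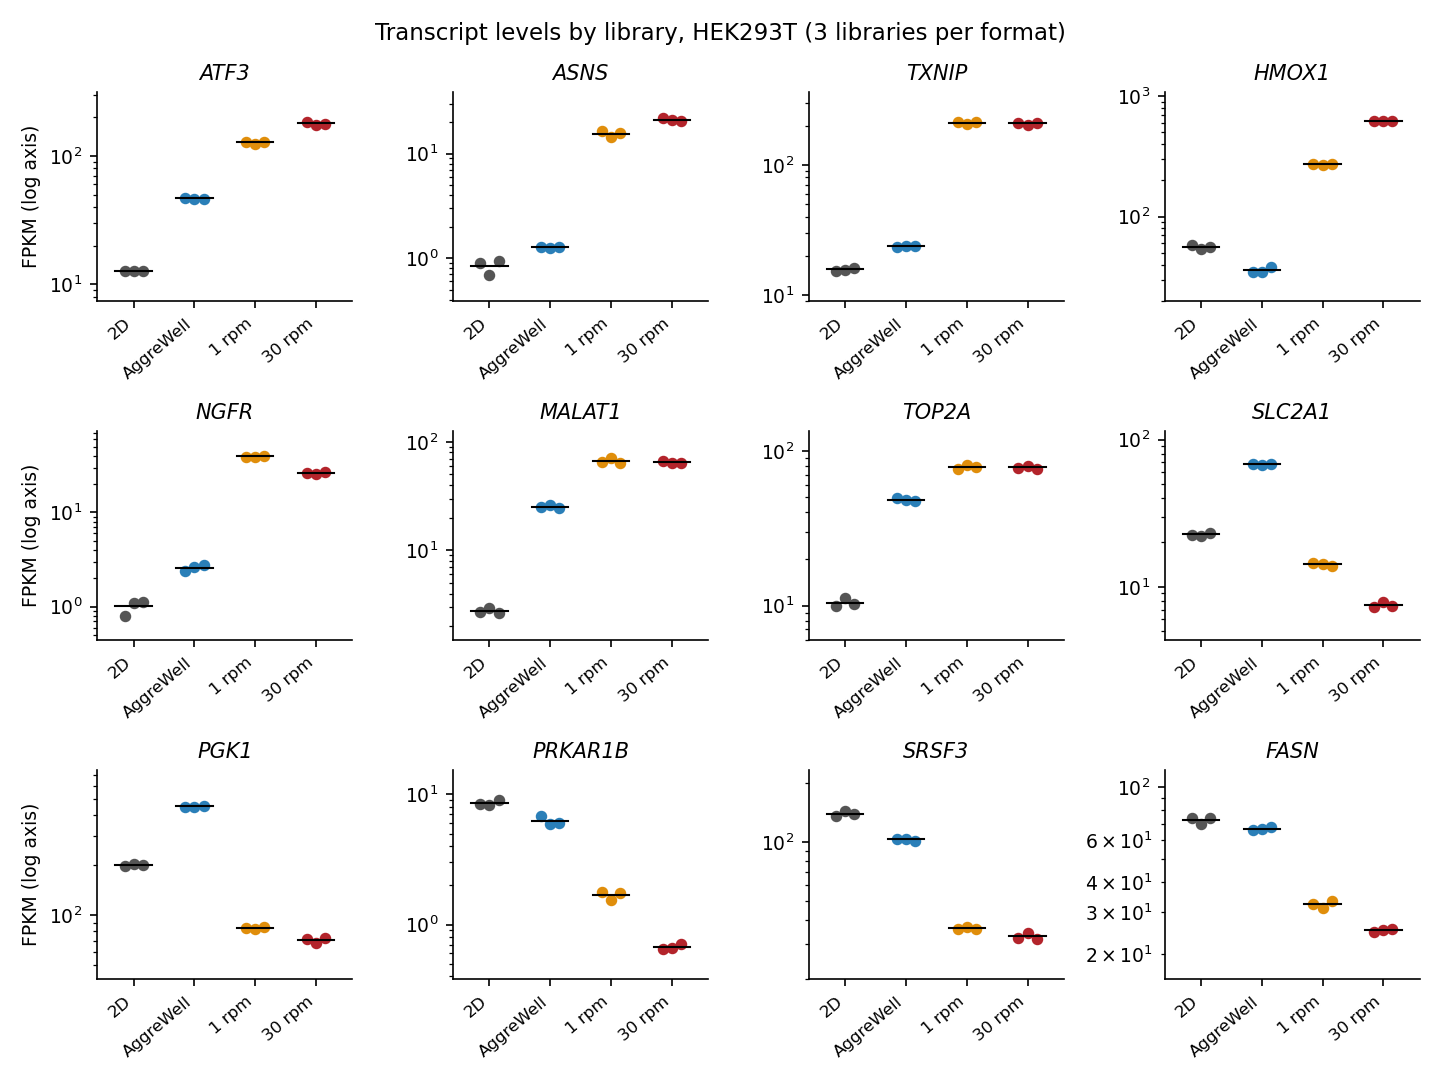
FPKM on a log axis for 12 genes in the HEK293T libraries, 3 points per format with a bar at the mean, for 2D, AggreWell, 1 rpm and 30 rpm. ATF3, ASNS, TXNIP, HMOX1, NGFR, MALAT1 and TOP2A sit higher at 30 rpm than in 2D and SLC2A1, PGK1, PRKAR1B, SRSF3 and FASN lower, with no overlap of the 2 groups in any panel.

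ATF4 targets of the amino acid response rose together. Of 25 listed members 24 were tested (3 passed the filter only through 30 rpm), of which 21 rose and 3 fell, with a median of 0.67 against 0.12 for all genes and 0.61 with the length and GC trend removed. ASNS, which makes asparagine from aspartate and whose promoter is shown above, had FPKM 0.891, 0.689 and 0.941 in 2D and 21.8, 20.9 and 20.7 at 30 rpm. The highest of its 2D libraries was under 1, so ASNS passed the filter through 30 rpm alone, and its log2 change was 3.59 ± 0.057 (adjusted p = 9.8e-15). SLC7A11, the cystine-glutamate antiporter, had FPKM 1.57, 2.31 and 1.93 in 2D and 35.4, 33.8 and 35.00 at 30 rpm and changed by 3.61 ± 0.085 (adjusted p = 2.6e-13). DDIT3, which encodes CHOP, had FPKM 6.79, 7.52 and 7.45 in 2D and 32.3, 36.6 and 37.9 at 30 rpm and changed by 2.15 ± 0.055. No library at 30 rpm overlapped the 2D libraries in these genes. CHAC1, which degrades glutathione, rose from a mean FPKM of 0.926 to 7.37 (2.12 ± 0.047) and was also under 1 in 2D. The members that fell were ALDH18A1 (-0.89 ± 0.028), a proline synthesis enzyme, PSPH (-0.15 ± 0.027), which completes serine synthesis, and SLC1A5 (-0.12 ± 0.027), a glutamine carrier, but PSPH turned to 0.086 and SLC1A5 to 0.11 with the trend removed, and both turned as well with mitochondrial genes left out of the scaling, SLC1A5 also under quantile normalization. Against the same 2D libraries the median of the list was 0.85 at 1 rpm and 0.033 in AggreWell, and in AggreWell ASNS had a mean FPKM of 1.28 and SLC7A11 of 1.86.

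Cytosolic aminoacyl-tRNA synthetases, which charge tRNAs with their amino acids, were split. All 20 listed members were tested, of which 14 rose and 6 fell, with a median of 0.82 (0.87 with the trend removed) beside 0.69 at 1 rpm and -0.16 in AggreWell against 2D. EPRS1, which charges glutamate and proline, had FPKM 19.2, 18.05 and 18.7 in 2D and 68.7, 70.5 and 70.5 at 30 rpm and changed by 1.85 ± 0.032 (adjusted p = 2.0e-14). LARS1, for leucine, rose by 1.52 ± 0.022, RARS1, for arginine, by 1.29 ± 0.025, and NARS1, for asparagine, by 1.22 ± 0.069. HARS1, for histidine, fell from FPKM values of 77.02, 71.4 and 76.00 to 30.8, 30.8 and 28.1, a change of -1.30 ± 0.042. Members with a GC content under the list's median had a median change of 1.09 and those above it 0.025.

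The thioredoxin-interacting protein TXNIP and 2 of its arrestin relatives were among the strongest responders. Of this family, 3 of 5 tested members (of 6 listed) rose and 1 fell, with a median of 2.42 (1.87 with the trend removed). TXNIP, which restrains glucose uptake and binds thioredoxin, had FPKM 15.3, 15.6 and 16.2 in 2D and 211, 203 and 209 at 30 rpm, a log2 change of 3.64 ± 0.027 (adjusted p = 1.5e-17). The 3 libraries at 30 rpm lay far above the highest 2D library, and their mean was 13.2 times that of 2D. ARRDC4 had FPKM 6.92, 8.23 and 6.75 in 2D and 59.7, 61.6 and 61.3 at 30 rpm and changed by 2.90 ± 0.064, and ARRDC3 had FPKM 1.67, 1.77 and 1.56 in 2D and 13.1, 13.6 and 13.2 at 30 rpm and changed by 2.42 ± 0.05. Both act as adaptors in the uptake and turnover of membrane proteins. The family was not uniform, since ARRDC2 fell (-0.29 ± 0.046, no longer called at -0.062 with the length and GC trend removed) and ARRDC1 did not pass the test (0.02 ± 0.046). This list was drawn up after values had been seen. In AggreWell TXNIP had a mean FPKM of 23.6 and at 1 rpm of 210.3.

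HMOX1, heme oxygenase 1, which breaks heme into biliverdin, carbon monoxide and iron, had FPKM 57.7, 53.7 and 56.3 in 2D and 624, 620.2 and 620.1 at 30 rpm. Its log2 change was 3.45 ± 0.036 (adjusted p = 3.0e-16), and HMOX1 was also higher at 30 rpm than at 1 rpm and in AggreWell, where the means were 273 and 35.97. Other genes of the NRF2 list did not follow it as a group. All 24 listed members were tested (1 passed the filter only through 30 rpm), of which 9 rose and 14 fell, with a median of -0.24 (-0.064 with the trend removed). OSGIN1, a growth inhibitor induced by oxidants, rose by 2.07 ± 0.079 from a mean under 1, and TXNRD1, thioredoxin reductase, rose from a mean FPKM of 49.9 to 102 (1.01 ± 0.03). NFE2L2, which encodes NRF2 itself, rose by 1.45 ± 0.054. PRDX1, a peroxidase, had FPKM 618, 619 and 643 in 2D and 288, 277 and 276 at 30 rpm and fell by 1.16 ± 0.027 on the log2 scale, and GPX1, glutathione peroxidase 1, and KEAP1, the adaptor that targets NRF2 for degradation, changed by -1.15 ± 0.041 and -1.09 ± 0.037. Of the iron genes, 8 of 11 tested members (of 13 listed) rose and 2 fell, where 49.7% of all genes rose, with a median of 0.35 (0.43 with the trend removed). IREB2 and FBXL5, which sense cellular iron, rose by 0.89 ± 0.06 and 0.77 ± 0.048, values that came to 0.21 and 0.43 with the trend removed, and STEAP3, an endosomal ferrireductase, fell by 1.502 ± 0.035.

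Among immediate early genes, 16 of 18 tested members (of 21 listed) rose and 1 fell (1 passed the filter only through 30 rpm), with a median of 0.71 (0.87 with the trend removed). JUN, an AP-1 subunit, had FPKM 84.7, 81.9 and 86.6 in 2D and 599.7, 592 and 611 at 30 rpm and changed by 2.82 ± 0.024 (adjusted p = 3.5e-17). FOS, its partner, was low, with FPKM 1.15, 0.961 and 0.832 in 2D and 2.95, 3.14 and 3.08 at 30 rpm and a change of 1.04 ± 0.074. JUN and FOS were both higher in every library at 30 rpm than in 2D. JUNB was the member that fell (-0.30 ± 0.035), and it was no longer called at -0.045 with the trend removed. Among KLF factors and genes that answer fluid flow, 7 of 13 tested members (of 16 listed) rose and 5 fell (1 passed the filter only through 30 rpm). These shares, 53.8% and 38.5%, were near the 49.7% and 36.2% of all genes. The median was 0.49 (0.57 with the trend removed). It was 0.66 at 1 rpm against 2D, and -0.105 for 30 rpm against 1 rpm. KLF2, THBD and NOS3 did not pass the filter, so the tested members were KLF factors, CCN1 and PIEZO1. KLF6 rose from a mean FPKM of 8.32 to 29.9 (1.73 ± 0.035) and KLF4 from 2.44 to 9.47 (1.61 ± 0.036), both zinc-finger factors, and the stretch-gated channel PIEZO1, which was not among the 5 members of largest change, fell by 0.65 ± 0.034. MAPK feedback genes, which dampen ERK and stress kinases, gave a median of 0.83 (1.06 with the trend removed): 7 of 9 tested members (of 14 listed) rose and 1 fell. DUSP1, a phosphatase of p38 and JNK, had FPKM 12.9, 14.04 and 13.7 in 2D and 64.9, 64.6 and 67.7 at 30 rpm and changed by 2.20 ± 0.036. ERRFI1, an inhibitor of the EGF receptor, rose by 1.49 ± 0.033, while SPRY1, a Sprouty inhibitor of growth factor signalling, fell by 0.98 ± 0.072.

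Of the targets of YAP and TAZ, coactivators that answer cell spreading and tension, 13 of 19 tested members (of 24 listed) rose and 4 fell (2 passed the filter only through 30 rpm). The median was 0.27 (0.38 with the trend removed), and it turned to -0.036 under quantile normalization. CCN1, a secreted matrix protein, had FPKM 7.02, 7.295 and 7.72 in 2D and 35.3, 33.4 and 34.6 at 30 rpm and changed by 2.09 ± 0.058 (adjusted p = 1.3e-12). ANKRD1 rose from a mean of 0.205 to 4.12 (2.09 ± 0.065), CCN2 from 2.88 to 6.71 (0.99 ± 0.092), and FJX1 fell by 0.73 ± 0.047. GADD45A, a stress-induced growth arrest gene on 2 lists, had FPKM 30.8, 30.7 and 30.3 in 2D and 221, 215 and 219 at 30 rpm and changed by 2.80 ± 0.023. Libraries of the 2 formats did not overlap in CCN1 or GADD45A. Of the CDK inhibitors and growth arrest genes as a whole, 10 of 16 tested members (of 17 listed) rose and 4 fell, with a median of 0.59 (0.63 with the trend removed). CDKN2D, which inhibits CDK4 and CDK6, rose by 1.51 ± 0.085 and BTG1, an antiproliferative gene, by 1.13 ± 0.032 (0.66 with the trend removed). Of p53 target genes, 10 of 15 tested members (of 16 listed) rose and 4 fell, with a median of 0.23 (0.35 with the trend removed), in a line whose p53 is bound by large T antigen. PMAIP1, which encodes the BH3-only protein NOXA and is also an ATF4 target, had FPKM 17.4, 21.6 and 17.7 in 2D and 166, 165 and 164 at 30 rpm and changed by 3.07 ± 0.078. BBC3, the BH3-only protein PUMA, rose by 0.94 ± 0.054, and BAX, a pore-forming effector of apoptosis, and BID, its activator, fell by 0.92 ± 0.038 and 1.86 ± 0.05, with BAX at -0.56 with the trend removed. Of the whole BCL2 family, 8 of 13 tested members (of 16 listed) rose and 5 fell (1 passed the filter only through 30 rpm). The median was 0.33 (0.385 with the trend removed), and 49.7% of all genes rose.

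Host genes of small nucleolar RNAs rose without exception among those called. These genes carry the guide RNAs of ribosomal RNA modification in their introns, and many of their spliced transcripts end in early stop codons and are cleared by nonsense-mediated decay. Of 18 listed members 17 were tested, of which 16 rose and 0 fell, with a median of 0.77 (1.10 with the trend removed) beside 0.63 at 1 rpm and -0.23 in AggreWell against 2D. Against AggreWell, 17 of 17 were higher at 30 rpm, where 40.9% of all genes were. SNHG1 had FPKM 109, 110.5 and 110.5 in 2D and 406, 398 and 398 at 30 rpm and changed by 1.86 ± 0.02 (adjusted p = 3.0e-16). GAS5, a growth arrest-specific host gene, had FPKM 218, 229 and 213 in 2D and 682, 634 and 670.3 at 30 rpm and changed by 1.59 ± 0.034. TAF1D, a subunit of an RNA polymerase I factor that also hosts such RNAs, rose from a mean of 18.8 to 124 (2.67 ± 0.08). SNHG9 did not pass the test (0.028 ± 0.11).

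The nuclear long noncoding RNAs MALAT1 and NEAT1 both rose, and were picked after their values had been seen. MALAT1, which sits in nuclear speckles, had FPKM 2.72, 2.94 and 2.63 in 2D and 66.6, 63.7 and 63.9 at 30 rpm, a log2 change of 4.13 ± 0.045 (adjusted p = 3.3e-16). NEAT1, the scaffold of paraspeckles, had FPKM 2.35, 2.54 and 2.47 in 2D and 31.7, 30.4 and 31.1 at 30 rpm and changed by 3.21 ± 0.034. All libraries at 30 rpm exceeded all 2D libraries in both. With the length and GC trend removed the changes were 3.62 and 2.76. The 2 transcripts together took 0.008002% of fragments in 2D and 0.127% at 30 rpm.

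**Figure D3:**
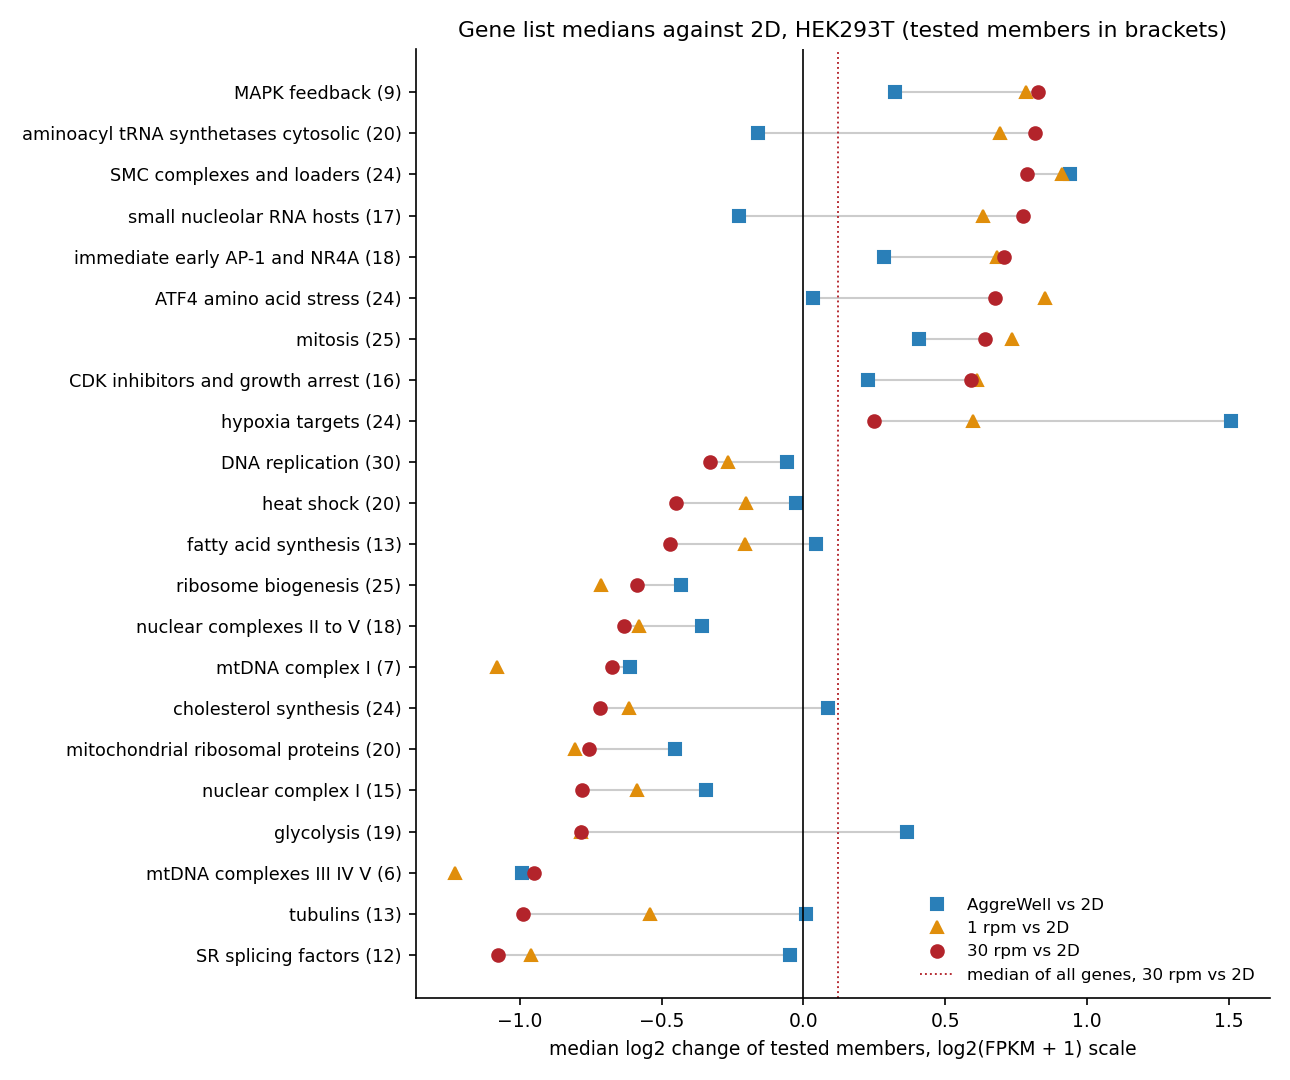
Median log2 change of the tested members of 22 gene lists against 2D (horizontal axis, log2(FPKM + 1) scale) in AggreWell, 1 rpm and 30 rpm, with the median of all genes at 30 rpm as a dotted line. The 3 comparisons share the 2D libraries. At 30 rpm the lists run from -1.08 for SR splicing factors to 0.83 for MAPK feedback genes, and among the lists drawn hypoxia targets and glycolysis show the widest gaps between AggreWell and 30 rpm.

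Hypoxia targets and glycolytic enzymes set the 30 rpm spheroids apart from the static ones. Of the hypoxia targets, 13 of 24 tested members (of 26 listed) rose and 8 fell, with a median of 0.25 (0.26 with the trend removed) at 30 rpm, 0.60 at 1 rpm and 1.51 in AggreWell, each against the same 2D libraries. In the direct test of 30 rpm against AggreWell, 23 of the 24 were lower and 1 higher, with a median of -1.21, where 38.2% of all genes were lower. SLC2A1, the glucose transporter GLUT1, had FPKM 22.7, 22.3 and 23.2 in 2D and 7.25, 7.92 and 7.38 at 30 rpm. Its change against 2D was -1.48 ± 0.034 (adjusted p = 2.2e-13), the reverse of AggreWell, where its mean was 67.8. BNIP3, a mitophagy receptor, had FPKM 72.00, 70.7 and 70.9 in 2D and 29.9, 27.3 and 30.6 at 30 rpm and changed by -1.26 ± 0.04. Both genes were lower in every library at 30 rpm than in 2D. DDIT4, an inhibitor of mTORC1 that ATF4 also induces, went the other way, with FPKM 90.2, 86.5 and 90.6 in 2D and 366, 349 and 356 at 30 rpm and a change of 1.99 ± 0.025. NDRG1 and P4HA1, a prolyl hydroxylase of collagen, rose by 1.46 ± 0.027 and 1.07 ± 0.04, less than their 2.26 ± 0.027 and 2.34 ± 0.04 in AggreWell.

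Most glycolysis genes fell below 2D. Of 20 listed members 19 were tested, of which 1 rose and 17 fell, with a median of -0.78 (-0.53 with the trend removed) beside -0.78 at 1 rpm and 0.36 in AggreWell. Against AggreWell, 18 of the 19 were lower at 30 rpm, where 38.2% of all genes were. PGK1, phosphoglycerate kinase, had FPKM 198, 203 and 199.5 in 2D and 71.8, 67.4 and 72.1 at 30 rpm, a log2 change of -1.49 ± 0.027 (adjusted p = 2.4e-14). PKM, pyruvate kinase, had FPKM 446, 429 and 445 in 2D and 147, 147 and 148 at 30 rpm and changed by -1.57 ± 0.021. In both genes the 3 libraries at 30 rpm were close together and well under the lowest 2D library. TPI1, PGAM1 and ENO1, other enzymes of the pathway, changed by -1.502 ± 0.021, -1.49 ± 0.033 and -1.48 ± 0.017. ENO2, the neuronal enolase, was the only tested member that rose (1.31 ± 0.047), from a mean FPKM of 9.34 to 24.6.

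**Figure D4:**
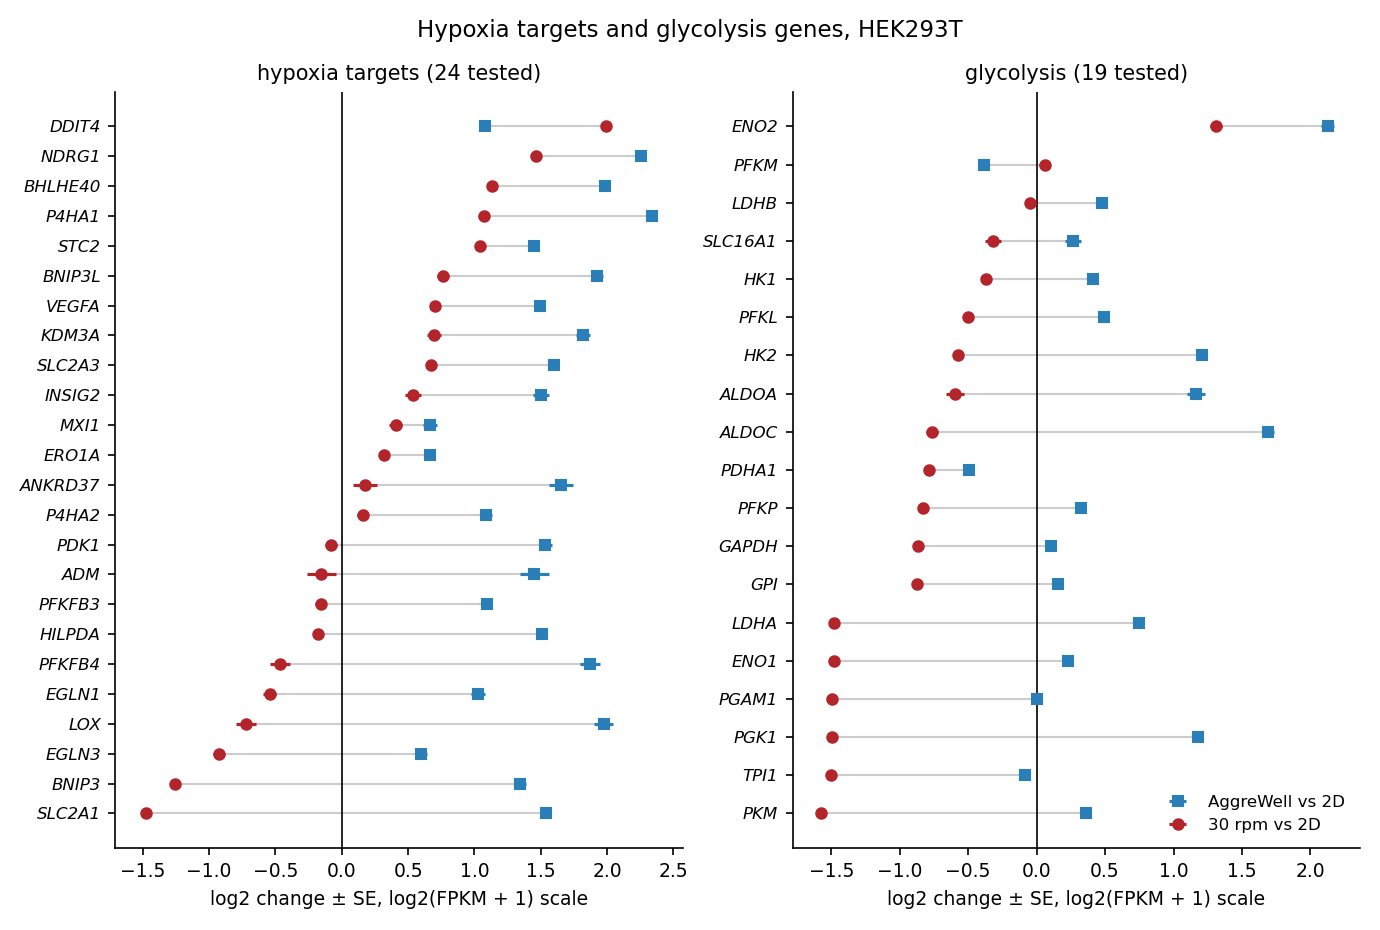
Log2 change with its SE for 24 hypoxia targets (left) and 19 glycolysis genes (right) in HEK293T, AggreWell against 2D in blue and 30 rpm against 2D in red, which share the 2D libraries. SLC2A1, BNIP3, LOX and PGK1 lie above 0 in AggreWell and below 0 at 30 rpm, and DDIT4 is the only hypoxia target further up at 30 rpm.

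Oxidative phosphorylation transcripts were lower at 30 rpm for nuclear genes and mixed for mitochondrial ones. All 15 tested subunits of complex I from the nucleus fell (15 of 15 listed), with a median of -0.78 (-0.53 with the trend removed), and of the nuclear genes of complexes II to V, 2 of 18 tested members (of 18 listed) rose and 16 fell, with a median of -0.63 (-0.44 with the trend removed). ATP5F1B, the catalytic beta subunit of ATP synthase, had FPKM 811, 781 and 796 in 2D and 390.4, 387 and 401 at 30 rpm and changed by -1.02 ± 0.02 (adjusted p = 6.7e-14). UQCRC2, a core protein of complex III, rose (0.55 ± 0.021, and 0.35 with the trend removed). Of mitochondrial ribosomal proteins, 1 of 20 tested members (of 20 listed) rose and 17 fell, with a median of -0.76 (-0.69 with the trend removed), MRPL11 among the largest falls (-1.31 ± 0.031). Of the 7 mitochondrially encoded complex I genes, ND5 (0.74 ± 0.032), ND4 (0.33 ± 0.032) and ND4L (0.23 ± 0.028, and 0.66 with the trend removed) rose and ND1, ND2, ND3 and ND6 fell, ND2 the furthest (-1.54 ± 0.04). ND5 had FPKM 1896, 1952 and 2023 in 2D and 3244, 3349.8 and 3233 at 30 rpm, and ND2 had FPKM 2633, 2712 and 2862 in 2D and 936, 931 and 954 at 30 rpm. CYTB, ATP6, COX3 and ATP8 fell by 0.95 ± 0.026 to 1.19 ± 0.057, with ATP8 at -0.72 with the trend removed, and COX1 (-0.054 ± 0.027) and COX2 (-0.033 ± 0.027) did not pass the test. Neighbouring genes of this genome are cut from shared transcripts and nuclear copies exist, so single values are uncertain. Together these 13 genes took 4.76% ± 0.0856 (SD, n = 3) of fragments in 2D and 4.16% ± 0.0884 (SD, n = 3) at 30 rpm.

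Cell cycle genes did not move as a block. Of the replication genes, 11 of 30 tested members (of 30 listed) rose and 19 fell, with a median of -0.33 (-0.14 with the trend removed). TYMS, thymidylate synthase, had FPKM 114, 115 and 117 in 2D and 54.9, 54.3 and 55.4 at 30 rpm and changed by -1.06 ± 0.032 (adjusted p = 2.4e-12). RFC4, a subunit of the clamp loader, had FPKM 23.97, 25.5 and 23.9 in 2D and 78.4, 80.9 and 83.6 at 30 rpm and changed by 1.69 ± 0.041, and CDT1, which loads the MCM helicase, rose from 70.4 to 183 (1.36 ± 0.034). TYMS was lower and RFC4 and CDT1 higher in every library at 30 rpm. Of the mitosis genes, 13 of 25 tested members (of 25 listed) rose and 9 fell, with a median of 0.64 (0.47 with the trend removed). TOP2A, which untangles chromosomes, had FPKM 9.92, 11.2 and 10.2 in 2D and 77.7, 79.8 and 76.8 at 30 rpm and changed by 2.79 ± 0.038 (adjusted p = 2.9e-15). CENPE and CENPF, large proteins of the kinetochore, and TTK, the checkpoint kinase, changed by 2.60 ± 0.087, 2.55 ± 0.043 and 2.53 ± 0.085, while CCNB1, cyclin B1, had FPKM 133, 129 and 128 in 2D and 50.9, 47.9 and 47.2 at 30 rpm and changed by -1.40 ± 0.033. The division ran with base composition: mitosis genes with a GC content under the list's median had a median of 1.43 and those above it -0.21, and for replication genes the values were 0.34 and -0.43. Cohesin, condensin and their loaders were a list drawn up after values had been seen. Of its 24 tested members (of 24 listed) 18 rose and 3 fell, where 49.7% of all genes rose. The median was 0.79 (0.54 with the trend removed), beside 0.91 at 1 rpm and 0.94 in AggreWell against 2D. Members with a GC content under the list's median had a median of 2.05 and those above it 0.16. STAG2, a cohesin subunit, had FPKM 13.2, 15.2 and 12.9 in 2D and 103, 106 and 102 at 30 rpm, and SMC3, a subunit of its ring, had FPKM 6.03, 6.05 and 5.95 in 2D and 45.3, 47.9 and 46.2 at 30 rpm. Their changes were 2.82 ± 0.055 and 2.76 ± 0.029, and 2.11 and 2.27 with the trend removed. The share of GC content in these changes was not tested beyond that.

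Splicing factors of the SR family fell in the main, with 3 rises and 9 falls among 12 members, all tested, a median of -1.08 (-0.97 with the trend removed) beside -0.96 at 1 rpm and -0.046 in AggreWell. This list was also made after values had been seen. SRSF3 had FPKM 137, 145 and 139 in 2D and 32.3, 34.2 and 32.04 at 30 rpm and changed by -2.06 ± 0.031 (adjusted p = 5.6e-15), and SRSF2 had FPKM 222, 226 and 224 in 2D and 65.97, 68.7 and 68.6 at 30 rpm and changed by -1.71 ± 0.023. SRSF6 and SRSF1 changed by -1.34 ± 0.039 and -1.20 ± 0.039, and SRSF11 rose (1.20 ± 0.11). With the trend removed SRSF3, SRSF2, SRSF6 and SRSF1 stood at -2.46, -1.64, -1.74 and -1.52, and SRSF11 at 0.44. Of the hnRNP proteins, another list made later, 7 of 21 tested members (of 24 listed) rose and 13 fell, and the median of -0.19 (-0.53 with the trend removed) turned to 0.015 under quantile normalization, while with the trend removed 6 rose and 15 fell. HNRNPM fell from FPKM values of 238, 229.9 and 235 to 57.7, 57.7 and 58.1 (-2.00 ± 0.027).

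Chaperones were divided. Of the heat shock genes, 8 of 20 tested members (of 20 listed) rose and 11 fell, with a median of -0.45 (-0.22 with the trend removed). HSPA8, the constitutive HSP70, had FPKM 855, 835 and 861 in 2D and 416, 421 and 419.9 at 30 rpm and changed by -1.02 ± 0.023 (adjusted p = 1.6e-13). HSP90AA1, the inducible HSP90, had FPKM 122, 121 and 122 in 2D and 302, 294 and 293 at 30 rpm and changed by 1.28 ± 0.019. The stress-induced HSPA1B fell from 459 to 109 (-2.06 ± 0.026), with the caution that HSPA1A and HSPA1B share nearly all of their sequence, and DNAJB1, their cochaperone, fell by 1.27 ± 0.034. Of the unfolded protein response genes of the endoplasmic reticulum, 10 of 19 tested members (of 19 listed) rose and 8 fell, with a median of 0.33 (0.23 with the trend removed). HSP90B1, the lumenal HSP90, had FPKM 108, 108 and 108 in 2D and 306, 307 and 302 at 30 rpm and rose by 1.49 ± 0.019, and HERPUD1, a degradation factor, rose by 1.24 ± 0.03. CRELD2 and SDF2L1, lumenal chaperone partners, fell by 0.98 ± 0.064 and 0.87 ± 0.051, and calreticulin, CALR, fell from 579.9 to 312 (-0.89 ± 0.024). With the trend removed SDF2L1 stood at -0.52 and CALR at -0.56.

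Actin genes were mixed and most tubulin genes fell. Of the actin and SRF genes, 7 of 22 tested members (of 25 listed) rose and 11 fell, and the median of -0.033 turned to 0.136 with mitochondrial genes left out of the scaling and to 0.151 with the trend removed. ACTB, beta-actin, had FPKM 1773, 1677 and 1738 in 2D and 511, 521 and 515 at 30 rpm and changed by -1.74 ± 0.026 (adjusted p = 5.6e-15). PFN1, profilin, and CFL1, cofilin, which feed and cut actin filaments, fell by 1.20 ± 0.024 and 1.16 ± 0.029, and TPM2, a tropomyosin, rose by 1.06 ± 0.036. Of the tubulins, a list made after values had been seen, 4 of 13 tested members (of 21 listed) rose and 9 fell, with a median of -0.99 (-0.69 with the trend removed) beside -0.54 at 1 rpm and 0.009 in AggreWell. TUBB4B had FPKM 517, 501 and 522 in 2D and 125, 124 and 128 at 30 rpm and changed by -2.02 ± 0.025. TUBA1B had FPKM 1614, 1532 and 1618 in 2D and 561, 591 and 583 at 30 rpm and changed by -1.46 ± 0.025. In ACTB and both tubulins every library at 30 rpm was far under every 2D library. Tubulin genes are similar in sequence, and reads may be split among them.

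Most genes of sterol and fatty acid synthesis fell. Of the cholesterol genes, 2 of 24 tested members (of 25 listed) rose and 19 fell, with a median of -0.72 (-0.60 with the trend removed), beside -0.61 at 1 rpm and 0.087 in AggreWell. NSDHL, a sterol dehydrogenase, had FPKM 29.9, 27.4 and 30.5 in 2D and 8.61, 8.22 and 8.62 at 30 rpm and changed by -1.67 ± 0.053 (adjusted p = 3.8e-12). LSS, which closes the sterol rings, had FPKM 28.5, 28.2 and 28.7 in 2D and 9.05, 10.2 and 10.1 at 30 rpm and changed by -1.45 ± 0.042. Both genes were lower in all 3 libraries at 30 rpm. ACAT2, a cytosolic enzyme at the start of the mevalonate route, changed by -1.43 ± 0.033. Of the fatty acid genes, 3 of 13 tested members (of 14 listed) rose and 8 fell, with a median of -0.47 (-0.36 with the trend removed). FASN, fatty acid synthase, had FPKM 74.2, 70.3 and 74.6 in 2D and 24.8, 25.3 and 25.4 at 30 rpm and changed by -1.499 ± 0.031, SCD, the stearoyl-CoA desaturase, changed by -1.41 ± 0.021, and ACLY, which supplies cytosolic acetyl-CoA, by -1.12 ± 0.023.

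Ribosomal protein genes had no firm direction and most ribosome assembly genes fell. Of 28 cytosolic ribosomal protein genes, all tested, 6 rose and 20 fell, and the median of -0.30 turned to 0.01 under quantile normalization and to 0.085 with the length and GC trend removed, so the direction rests on the scaling. RPL7 was the largest mover, from 230.4 to 592 (1.36 ± 0.022), among genes with many processed copies. Of the ribosome biogenesis genes, 5 of 25 tested members (of 25 listed) rose and 20 fell, with a median of -0.59 (-0.38 with the trend removed). UBTF, an activator of RNA polymerase I, had FPKM 46.9, 44.1 and 47.04 in 2D and 16.9, 16.6 and 16.8 at 30 rpm and changed by -1.40 ± 0.033 (adjusted p = 2.5e-13), and PES1 and NOP16, nucleolar assembly factors, fell by 1.19 ± 0.026 and 1.18 ± 0.032, with NOP16 at -0.78 with the trend removed. NOP58, a core protein of box C/D particles, rose from 35.8 to 112 (1.62 ± 0.035).

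Of the Notch genes, 9 of 14 tested members (of 15 listed) rose and 4 fell (2 passed the filter only through 30 rpm), with a median of 0.57 (0.75 with the trend removed). The target genes HES1, HEY1 and NRARP rose by 1.19 ± 0.047, 0.82 ± 0.048 and 0.80 ± 0.03, while the receptor gene NOTCH3 fell from 6.22 to 2.84 (-0.91 ± 0.043). HES5 had FPKM 0.962, 0.748 and 0.593 in 2D and 6.52, 7.201 and 7.68 at 30 rpm and changed by 2.20 ± 0.079. Its 2D libraries were under 1, so it passed through 30 rpm alone. Of the clock genes, 10 of 13 tested members (of 17 listed) rose and 1 fell (1 passed the filter only through 30 rpm), with a median of 0.52 (0.71 with the trend removed), NR1D2, a nuclear receptor that represses clock genes, rising by 1.71 ± 0.072. Of the collagens and other matrix genes, 7 of 17 tested members (of 24 listed) rose and 8 fell (1 passed the filter only through 2D), and the median of -0.063 turned to 0.06 with mitochondrial genes left out and to 0.111 with the trend removed. The basement membrane chains COL4A2 and COL18A1 fell by 1.29 ± 0.031 and 0.82 ± 0.032, and FN1, fibronectin, rose from 2.59 to 6.01 (0.97 ± 0.048). Of the integrins and laminins, 9 of 15 tested members (of 20 listed) rose and 3 fell (2 passed the filter only through 30 rpm), where 49.7% of all genes rose. The median was 0.26, and 0.258 with the trend removed. ITGB1, the common beta chain, rose from 14.2 to 28.2 (0.94 ± 0.028, and 0.59 with the trend removed).

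The speed of rotation changed levels by small amounts. Between 30 and 1 rpm, 6373 genes were called (53%), 2468 higher (20.5%) and 3905 lower (32.5%) at 30 rpm. Rises made up 38.7% of these calls, and 51.3% with median-ratio scaling and 51.1% under quantile normalization. At least 2-fold changes were found for 14 genes (0.116%), 3 higher (0.025%) and 11 lower (0.0915%). HMOX1 was 1.18 ± 0.036 higher at 30 rpm, with FPKM 274, 271 and 274 at 1 rpm and 624, 620.2 and 620.1 at 30 rpm. ADAMTS1, a secreted metalloprotease, had FPKM 146, 144 and 148 at 1 rpm and 318, 318 and 318 at 30 rpm (1.12 ± 0.02), and SMIM11 had FPKM 0.7704, 0.834 and 0.819 at 1 rpm and 13.7, 1.102 and 6.26 at 30 rpm (1.75 ± 0.47), an uncertain gene with near-identical copies. The 3 libraries at 30 rpm lay above those at 1 rpm in each gene, but those of SMIM11 were far apart from one another. RHOB, a small GTPase of endosomes, OSGIN1 and ANXA1 were higher by 0.84 ± 0.021, 0.95 ± 0.079 and 0.99 ± 0.091. GDF15, a secreted stress factor, had FPKM 10.8, 9.17 and 9.06 at 1 rpm and 3.78, 3.197 and 3.66 at 30 rpm (-1.23 ± 0.10), and INHBE, an activin chain, had FPKM 25.5, 24.7 and 23.9 at 1 rpm and 9.24, 10.02 and 10.9 at 30 rpm (-1.22 ± 0.06). The last 2 were above 2D at both speeds and higher at 1 rpm than at 30 rpm. ANKRD37, a hypoxia target, and ACTA2, smooth muscle actin, were lower at 30 rpm than at 1 rpm by 1.28 ± 0.091 and 1.14 ± 0.08 on the log2 scale. Of the 24 hypoxia targets 18 were lower at 30 rpm than at 1 rpm and 0 higher at adjusted p under 0.05.

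Against AggreWell, 9508 genes were called (79.1%), 4913 higher (40.9%) and 4595 lower (38.2%) at 30 rpm, and 639 reached 2-fold (5.32%), 280 higher (2.33%) and 359 lower (2.99%). The largest rises were HMOX1 (4.07 ± 0.036), SLC7A11 (3.64 ± 0.085), ASNS (3.28 ± 0.057), TXNIP (3.09 ± 0.027), NGFR (2.92 ± 0.06) and CALCB (2.81 ± 0.034). The largest falls were GBE1 (-3.47 ± 0.055), the glycogen branching enzyme, SLC2A1 (-3.02 ± 0.034), LOX (-2.70 ± 0.074), which crosslinks collagen, PGK1 (-2.67 ± 0.027), TMEM45A (-2.67 ± 0.067) and BNIP3 (-2.60 ± 0.04). GBE1 had FPKM 29.9, 29.3 and 29.1 in AggreWell and 1.96, 1.51 and 1.81 at 30 rpm, and LOX had FPKM 17.4, 18.96 and 17.7 and 1.64, 1.96 and 2.22.

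Whether HEK293T answered 30 rpm as PANC-1 did was tested by the difference of the 2 responses, each against its own 2D libraries, as HEK293T minus PANC-1. It was called for 9689 genes (80.6%), 47.4% of them above 0, or 59.8% with mitochondrially encoded genes left out and the FPKM sums of the others set equal. Of all tested genes, 2462 (20.5%) had called changes in opposite directions, 1003 up in HEK293T and down in PANC-1 (8.34%) and 1459 the reverse (12.1%). Replication and mitosis genes stood out on the HEK293T side: the difference was above 0 and called for 30 of 30 and 24 of 25 members, where 38.2% of all genes were, with medians of 1.08 and 1.17. PANC-1 medians were -1.33 and -0.77. MKI67, the Ki-67 proliferation antigen, had FPKM 5.89, 5.34 and 5.67 in 2D and 17.6, 17.9 and 17.9 at 30 rpm in HEK293T, while in PANC-1 it had 52.9, 45.1 and 45.5 in 2D and 17.2, 18.1 and 17.4 at 30 rpm. HMMR, a spindle protein, had FPKM 6.75, 8.38 and 6.63 in 2D and 31.7, 32.2 and 31.5 at 30 rpm in HEK293T and 27.6, 28.2 and 29.2 in 2D and 13.3, 12.3 and 12.2 at 30 rpm in PANC-1. Each rose in all libraries of HEK293T and fell in all of PANC-1. ATAD2, a chromatin ATPase, and ERCC6L, a mitotic DNA translocase, changed by 2.26 ± 0.039 and 1.57 ± 0.036 in HEK293T and by -0.73 ± 0.029 and -1.26 ± 0.043 in PANC-1. PTX3, a secreted pentraxin, was low in HEK293T, at mean FPKM of 0.584 in 2D and 2.04 at 30 rpm, and changed by -2.47 ± 0.087 in PANC-1.

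The reverse group held HSPA1B and HSPA1A, CCDC85B, IER5L, DBP and H3C10. CCDC85B, a transcriptional corepressor, had FPKM 102, 99.3 and 103 in 2D and 49.2, 46.9 and 47.6 at 30 rpm in HEK293T and 61.5, 67.5 and 64.5 in 2D and 297, 284 and 292 at 30 rpm in PANC-1. DBP, a clock-controlled bZIP factor, had FPKM 8.91, 8.46 and 8.04 in 2D and 4.69, 4.29 and 4.67 at 30 rpm in HEK293T and 1.67, 1.94 and 1.598 in 2D and 22.1, 20.7 and 20.5 at 30 rpm in PANC-1. The libraries of the 2 formats did not overlap in either line. IER5L, an immediate early gene relative, changed by -0.84 ± 0.057 in HEK293T and 2.04 ± 0.041 in PANC-1, and H3C10, a replication-dependent histone H3 gene with near-identical copies, by -0.76 ± 0.18 and 3.56 ± 0.091, though in HEK293T it was no longer called at -0.32 with the length and GC trend removed. Mitochondrially encoded genes all fell in PANC-1, while in HEK293T ND5, ND4 and ND4L rose and COX1 and COX2 did not pass the test. The difference was above 0 and called for 13 of 13, where 38.2% of all genes were. The share of fragments of these genes at 30 rpm was 1.598% in PANC-1. Some responses had the same sign in both lines. TXNIP changed by 3.64 ± 0.027 and 3.62 ± 0.069, with a difference of 0.02 ± 0.072 that turned to -0.93 with a pseudocount of 0.1, HMOX1 by 3.45 ± 0.036 and 4.36 ± 0.063 (-0.91 ± 0.074), and ATF3 by 3.72 ± 0.025 and 2.61 ± 0.048 (1.11 ± 0.053). Cholesterol genes had a median of -0.72 in HEK293T and 0.16 in PANC-1, and the difference was below 0 and called for 19 of 24, where 42.4% of all genes were.

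**Figure D5:**
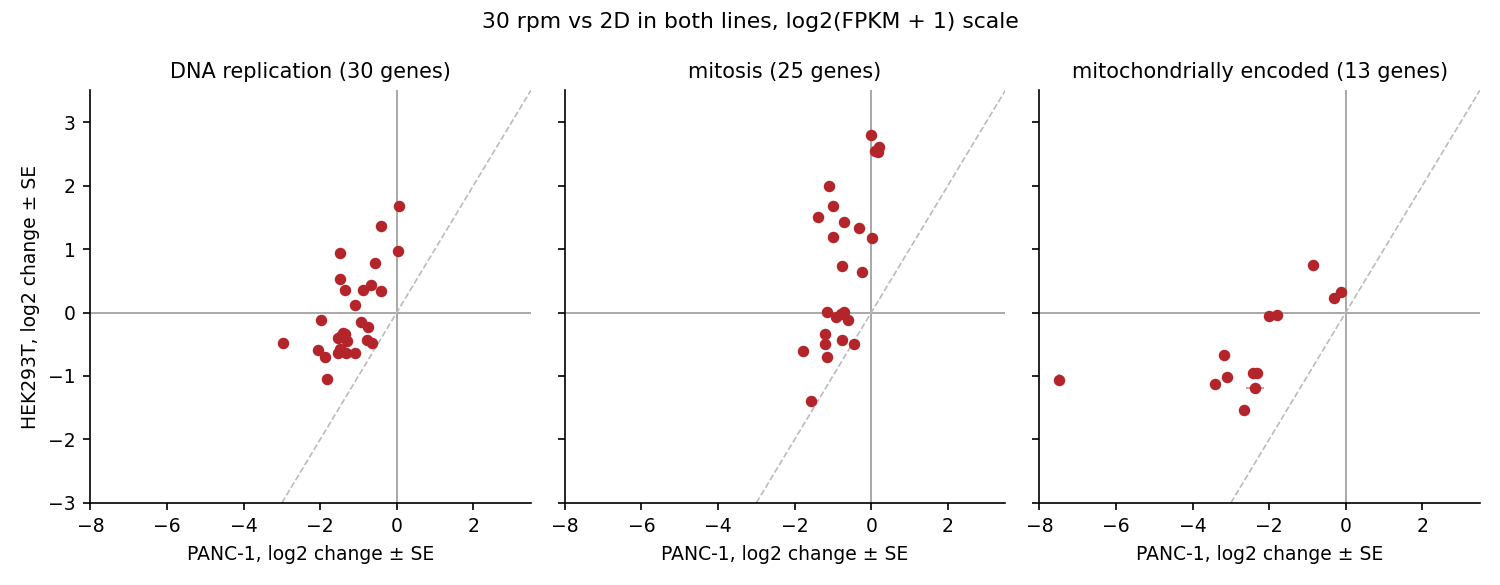
Log2 change of 30 rpm against 2D in PANC-1 (horizontal axis) and HEK293T (vertical axis) for 30 replication genes, 25 mitosis genes and 13 mitochondrially encoded genes, with SE bars and a dashed line of equal change. Every replication gene and nearly every mitosis gene lies above the line of equal change.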

How the data were processed

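Total RNA libraries of 8 groups with 3 libraries each were analysed from the deposited FPKM table. Per the submitters' processing notes the authors used fastp, HISAT2, HTSeq and R 3.2.0, with no role given. Those notes name the build mm10 although the deposited table holds human gene symbols, and the annotation behind the table is not stated there. How reads that fit several genes were assigned is not stated, so genes with near-identical copies are uncertain.

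Log2(FPKM + 1) was fitted with limma 3.58.1 (trend) in R 4.3.3 over the 12 HEK293T libraries, and over all 24 for the line difference, for the 12020 genes with FPKM of at least 1 in 3 or more of the 6 compared libraries. Whole fragments were recovered for 26449 of 26450 genes (tolerance 0.01 fragment), which gave depths and transcript lengths and served voom as an alternative. GC content came from GENCODE 29 transcripts and promoters from RefSeq (GRCh38.p14). On simulated data with 12020 genes the fit recovered 99 of 100 planted changes of 1.5-fold, 100 of 100 of 2-fold, and made 14 false calls. The planted genes were above an FPKM of about 5 in 2D, all others were unchanged, and no shift in scaling was simulated. It therefore gives no error rate for low genes or for data in which 85.9% of genes were called. Replicate libraries differed by more than sampling noise.

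The comparison, its genes and 45 gene lists were chosen with earlier results of these data known, and 6 lists were added after values were seen: SR and hnRNP proteins, SMC complexes, tubulins, TXNIP and ARRDC, and long noncoding RNAs. Named genes were the 10 largest rises and falls without overlap and with a mean FPKM of at least 5, the 5 called members of largest change per list, all mitochondrially encoded and marker genes, and the 6 largest per direction in the other comparisons; a few genes the rule picks are not reported here. Chosen after their values were seen were ALDH18A1, ARRDC1, ARRDC2, ARRDC3, ARRDC4, CALR, CCNB1, CRELD2, DNAJB1, ENO2, FJX1, GPX1, HDAC1, HNRNPM, HSPA8, JUNB, KEAP1, MALAT1, NEAT1, NRARP, P4HA1, PIEZO1, PSPH, SDF2L1, SLC1A5, SMC3, SNHG9, SRSF1, SRSF11, SRSF2, SRSF3, SRSF6, STAG2, TUBA1B, TUBB4B, TXNRD1 and UQCRC2. Alternatives changed the pseudocount, filter, scaling, fit, replicate block, and length and GC trends, the last added after seeing the data. The setting without mitochondrial genes also set the summed FPKM of all other genes equal across libraries.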

Additional observations from a re-analysis of the deposited data

Results flagged for a closer look

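Of the genes named above and in the closing observations, leaving out cell type markers and HSPA1A, 39 were called in opposite directions in HEK293T and PANC-1. They were also called in the test of the difference between the 2 responses (limma, adjusted p under 0.05, each line against its own 2D libraries). Of all 12020 tested genes, 2462 (20.5%) met the same rule, so the count is not read as a result about the named genes. HSPA1A, whose counts are uncertain, met the rule as well. The values below are that difference on the log2 scale, HEK293T minus PANC-1, with 3 libraries per group. No explanation was tested.

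The genes listed here were selected for opposite directions and do not stand for their pathways. HMMR (3.11), ATAD2 (2.99), MKI67 (2.89), ERCC6L (2.83) and CDT1 (1.77) rose in HEK293T and fell in PANC-1. The same held for PTX3 (3.42) and for ANKRD1 (4.40), CCN2 (2.90) and CCN1 (2.40) of the YAP and TAZ list. NOP58 (2.21), RARS1 (1.38), CHAC1 (2.31), LRPPRC (1.17), ENO2 (1.65) and IREB2 (1.13) also rose in HEK293T and fell in PANC-1. So did the mitochondrially encoded ND5 (1.61), ND4L (0.53) and ND4 (0.46).

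SCD (-2.15), LSS (-1.83) and FASN (-1.57) fell in HEK293T and rose in PANC-1. SLC2A1 (-2.40), BNIP3 (-1.58) and LOX (-0.96) did so too. H3C10 (-4.31), HSPA1B (-3.94), DBP (-3.79), CCDC85B (-3.22), IER5L (-2.88), JUNB (-2.82) and MARVELD1 (-2.52) moved in the same directions. NOTCH3 (-1.74), SPRY1 (-1.35), COL4A2 (-1.40), COL18A1 (-1.29), CRELD2 (-1.38), SDF2L1 (-1.31), ARRDC2 (-1.28) and SLC1A5 (-0.40) completed the group. The fall in HEK293T was not secure for every gene. With the length and GC trend removed ARRDC2 (-0.062), JUNB (-0.045) and H3C10 (-0.32) were no longer called. SLC1A5 turned to 0.241 under quantile normalization, 0.057 with mitochondrial genes left out and 0.115 with the trend removed, where its line difference was 0.056.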

How the results depend on the processing

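The counts of called genes kept within 1.5 times of the reported ones under the alternatives run, except that a filter at a mean FPKM of 5, which tests fewer genes, gave 3573 genes higher at 30 rpm than in 2D, 3221 higher than in AggreWell and 2903 with a line difference above 0. Leaving out each library in turn left 10080 to 10280 genes called against 2D, 5639 to 5913 against 1 rpm, 9112 to 9198 against AggreWell and 9509 to 9711 for the line difference. Counts at 2-fold depended more on the scale: against 2D, falls were 775 with median-ratio scaling, 728 with voom on recovered fragments, 308 with the length and GC trend removed and 267 without mitochondrial genes, and rises were 890 under quantile normalization, 939 with the mean filter and 2261 with voom. Against 1 rpm, a pseudocount of 0.1 gave 11 rises and 55 falls and voom 17 and 74; quantile normalization gave 5 rises and the mean filter 7 falls. Against AggreWell, the same 2 settings gave 552 and 606, and 603 and 643, and the mean filter 185 rises. For the line difference they gave 1394 and 1587, and 1405 and 1801; the mean filter gave 614 rises, and 596 and 585 falls were left without mitochondrial genes and with the trend removed.

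Of 47 list medians, 36 kept their sign in every setting. The others turned as follows: mitochondrial DNA upkeep (0.134 without mitochondrial genes, -0.077 to 0.001 leaving out 1 library), histones (0.072 with the length trend and 0.156 with the length and GC trend removed), YAP targets (-0.036, quantile), actin (0.136 and 0.151), collagens (0.06 and 0.111) and chromatin enzymes (0.11 and 0.113; each without mitochondrial genes and with the length and GC trend removed; chromatin 0.09 with the mean filter), NF-kB (-0.798 with the mean filter, -0.148 quantile), TGF-beta (-0.052, median-ratio), ribosomal proteins (0.01 quantile, 0.085 with length and GC removed), autophagy (-0.041 mean filter, -0.129 median-ratio) and hnRNP proteins (0.015, quantile). Single genes that turned were mostly not called: ARRDC1 (-0.111 median-ratio, -0.229 quantile, -0.011 length, -0.024 to 0.046 by library), COX1 (0.168 length, 0.129 length and GC), COX2 (0.203 quantile, 0.216 length, 0.295 length and GC) and SNHG9 (-0.112 median-ratio, -0.034 to 0.107 by library). Called ones were PSPH (0.022 without mitochondrial genes, 0.086 length and GC) and SLC1A5 (0.241 quantile, 0.057 and 0.115). Called genes that kept their sign against 2D but moved by over 1.5 times numbered 19 under quantile normalization (ARRDC2 -0.56, ATP5F1B -0.61, ATP8 -0.78, CALR -0.46, CCN2 0.65, CDH1 0.28, CFL1 -0.77, CTNNB1 -0.22, FBXL5 0.51, FN1 0.62, FOS 0.68, H3C10 -1.16, HDAC1 -0.57, HSPA8 -0.56, ND4 0.70, PFN1 -0.77, PRDX1 -0.73, PTX3 0.57 and UQCRC2 0.83), 19 with the length and GC trend removed, 7 with voom and 7 with a pseudocount of 0.1 (ANKRD1 3.83, CDH1 0.96, FOS 1.56, H3C10 -1.30, NOTUM 2.48, OSGIN1 3.15 and PTX3 1.71). In the line difference SLC1A5 turned to 0.056 with length and GC removed, and TXNIP to -0.933 with a pseudocount of 0.1, -0.082 median-ratio, -1.106 voom, -0.172 with length and GC removed and -0.074 to 0.081 by library. The cause was not tested.

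The replicate number as a block gave 10435 called genes against 2D (6032 higher, 4403 lower), 6680 against 1 rpm, 9660 against AggreWell and 9731 for the line difference. Same-numbered libraries at 30 rpm and in 2D showed correlations of -0.098, -0.0024 and 0.090 between their deviations, so the numbers were not taken as a pairing, and not every library correlated best with its own number. The 2D replicate 2 stood most apart (chi-square per gene of 11.6 and 10.3 against its fellows, 2.88 between those). With 3 libraries per group, and 32555389 fragments in the shallowest, genes near an FPKM of 1 rest on few fragments for their length.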

Other observations

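Signalling and junction genes outside the lists described above were mixed. Of NF-kB genes, 4 of 6 tested members (of 20 listed) rose and 2 fell (1 passed the filter only through 30 rpm), and the median of 0.26 (0.32 with the trend removed) turned to -0.148 under quantile normalization and to -0.798 with a mean FPKM of at least 5. NFKB2 had FPKM 8.83, 8.19 and 9.05 in 2D and 25.2, 25.9 and 25.3 at 30 rpm and changed by 1.45 ± 0.041 (limma, adjusted p = 1.5e-12), whereas NFKB1, the other precursor subunit, had FPKM 12.2, 11.6 and 12.3 in 2D and 4.35, 4.06 and 3.96 at 30 rpm and changed by -1.35 ± 0.04. The 2 paralogs moved apart with no overlap between formats. Of TGF-beta and BMP genes, 7 of 15 tested members (of 20 listed) rose and 6 fell (2 passed the filter only through 30 rpm), and the median of 0.086 (0.34 with the trend removed) turned to -0.052 with median-ratio scaling. ID4, an inhibitor of bHLH factors, rose from a mean FPKM of 20.4 to 50.3 (1.27 ± 0.064), and SMAD6, which blocks BMP signalling, fell from 5.63 to 1.98 (-1.16 ± 0.049). Of Wnt feedback genes, 3 of 10 tested members (of 16 listed) rose and 6 fell (1 passed the filter only through 30 rpm), with a median of -0.25, but with the length and GC trend removed 5 rose and 5 fell, with a median of -0.023. NOTUM, a secreted Wnt deacylase, rose from 0.161 to 1.37 (1.02 ± 0.086). Of junction genes, 8 of 16 tested members (of 23 listed) rose and 4 fell, with a median of 0.20 (0.076 with the trend removed). CDH1, E-cadherin, had FPKM 1.18, 1.08 and 1.22 in 2D and 2.25, 2.52 and 2.298 at 30 rpm and changed by 0.64 ± 0.054. CDH1 was higher in every library at 30 rpm but stayed low. JUP, plakoglobin, rose from 15.7 to 24.5 (0.61 ± 0.04) and CTNNB1, beta-catenin, fell from 98.03 to 69.02 (-0.50 ± 0.028, and -0.86 with the trend removed).

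Organelle and chromatin lists were mixed too. Of autophagy and lysosome genes, 11 of 24 tested members (of 24 listed) rose and 10 fell (1 passed the filter only through 30 rpm), and the median of 0.011 (0.091 with the trend removed) turned to -0.129 with median-ratio scaling and to -0.041 with a mean FPKM of at least 5. GABARAPL1, an ATG8 relative, had FPKM 22.6, 22.3 and 22.7 in 2D and 70.9, 69.4 and 70.3 at 30 rpm and changed by 1.60 ± 0.026. Of chromatin lysine enzymes, 11 of 25 tested members (of 25 listed) rose and 13 fell, and the median of -0.065 turned to 0.09 with that filter, 0.11 without mitochondrial genes and 0.113 with the length and GC trend removed. KDM7A, a histone demethylase, rose from 2.07 to 9.44 (1.77 ± 0.055, and 1.12 with the trend removed) and HDAC1, a histone deacetylase, fell from 176 to 92.4 (-0.92 ± 0.03). Of genes that keep and transcribe mitochondrial DNA, 6 of 16 tested members (of 17 listed) rose and 8 fell, and the median of -0.028 (-0.077 with the trend removed) turned to 0.134 without mitochondrial genes and to 0.001 without 30 rpm replicate 3. SLIRP, which stabilises mitochondrial mRNAs, had FPKM 272, 273 and 271 in 2D and 98.1, 84.5 and 85.7 at 30 rpm and changed by -1.60 ± 0.047, while its partner LRPPRC rose from 18.95 to 41.4 (1.09 ± 0.032). Of clustered histones, mostly transcripts without a poly(A) tail, 2 of 8 tested members (of 29 listed) rose and 2 fell (1 passed the filter only through 30 rpm and 1 only through 2D), and the median of -0.17 turned to 0.072 with the length trend and 0.156 with the length and GC trend removed. Of metallothioneins and zinc genes, 2 of 6 tested members (of 10 listed) rose and 4 fell, with a median of -0.62 (-0.59 with the trend removed), and MT2A fell from 68.3 to 34.4 (-0.96 ± 0.091, and -0.47 with the trend removed). The metallothionein genes are near-identical to one another and reads may be split among them. Of the long noncoding RNAs, a list drawn up after values had been seen, 6 of 6 tested members (of 8 listed) rose and 0 fell, with a median of 1.00, and with the trend removed 4 rose and 1 fell, with a median of 0.85.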
